A study of Saccharomyces cerevisiae with 4 samples.

Results

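Sterol genes of Saccharomyces cerevisiae were followed in cultures exposed to b-lapachone, a naphthoquinone, and in cultures exposed to its vehicle. The set was chosen by function, with earlier results of these data known. It holds 32 of the 6211 open reading frames (ORFs) in the table. Of these, 10 are genes for the steps from acetyl-CoA through mevalonate to squalene and 12 for those from squalene to ergosterol. The other 10 are accessory, regulatory and esterification genes. All 32 matched a locus tag in the RefSeq gene table, and 31 had values on enough arrays to be tested, 26 of them on 4 arrays and 5 on 3. BY4741, a haploid MATa laboratory strain, was used in every culture; it is wild type for LYS2 and carries met15Δ0, ura3Δ0, leu2Δ0 and his3Δ1. Cultures in rich medium (YPD) at 28 °C were in log phase, at an absorbance of 0.6, when b-lapachone (10 µg/ml, in DMSO) or 1% DMSO alone was added to 50 ml for 1 h. Each of the 4 arrays set the RNA of a treated culture against that of a vehicle culture (1 group, n = 4 biological replicates per the design text), with treated RNA in Cy3 on replicates 1 and 3 and in Cy5 on replicates 2 and 4.

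Ergosterol is the main sterol of yeast membranes. Its carbon comes from acetyl-CoA by way of mevalonate and the isoprenoid farnesyl pyrophosphate, which also feeds ubiquinone, haem A, dolichol and prenylated proteins. Squalene synthase commits the carbon to sterols, and the later steps use molecular oxygen, haem and NADPH. The zinc cluster factors Upc2 and Ecm22 activate many of these genes when sterol is scarce, HMG-CoA reductase is also controlled by degradation in the endoplasmic reticulum, and surplus sterol is stored as esters. BY4741 belongs to the reference strain background, in which HAP1, encoding a haem-responsive activator of some sterol genes, is interrupted by a transposon.

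Values are log2 ratios, taken as b-lapachone over vehicle. That direction is likely rather than settled, and the opposite one would exchange every higher and lower below. The deposited table could also hold a fixed ratio of the dyes; read that way, no sterol gene would pass the test (0 of 31 by limma, 1 at an unadjusted p under 0.05). Each rank of a gene or class given here holds for the assumed direction alone. A gene is said to have risen or fallen only where its Benjamini-Hochberg adjusted p from limma, over all 5112 genes with values on at least 3 arrays, was below 0.05. The arrays listed 4819 to 5534 ORFs each and 28 to 31 of the 32 sterol genes, and a gene's mean had a standard error of 0.109 at the median. A ratio of dyes holds no expression level, so the strain's deletions could not be checked by level. URA3, which the strain lacks, was still listed on 4 arrays at 0.14 ± 0.23 (SD). HIS3 was listed on 4 arrays at 0.26 ± 0.30, and LEU2 and MET15 were listed on none. In RNA of a whole culture, fewer cells carrying a transcript and less of it per cell cannot be told apart.

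Of the 31 sterol genes tested, 2 fell and none rose (0 higher by limma, 3 higher at an unadjusted p under 0.05). The falls were in HMG1, a HMG-CoA reductase, and ERG5, the C-22 sterol desaturase. Over all genes tested 0.959% fell, 2.07% rose and 3.03% were called in either direction. An unadjusted p under 0.05 was found for 15 sterol genes (18.8% of all genes), 12 of them lower (8.63%) and 3 higher (10.2%). Means of -0.4 or lower numbered 3 (1.94%), those of HMG1, ERG5 and CYB5, and none reached 0.4 (3.64%). On every array that measured them, 13 of the 31 were below 0 (14.4% of all genes) and 4 were above 0 (12.9%). The median of the 31 means was -0.18, beside -0.01 for all genes tested, and 24 of the 31 means were below 0, as were 53.2% of all means. Both calls ended without replicate 3, without replicate 4 and when limma's moderated variance was replaced by a separate variance per gene (0 of 31 in each case, with 10, 12 and 12 at an unadjusted p under 0.05).

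**Figure D1:**
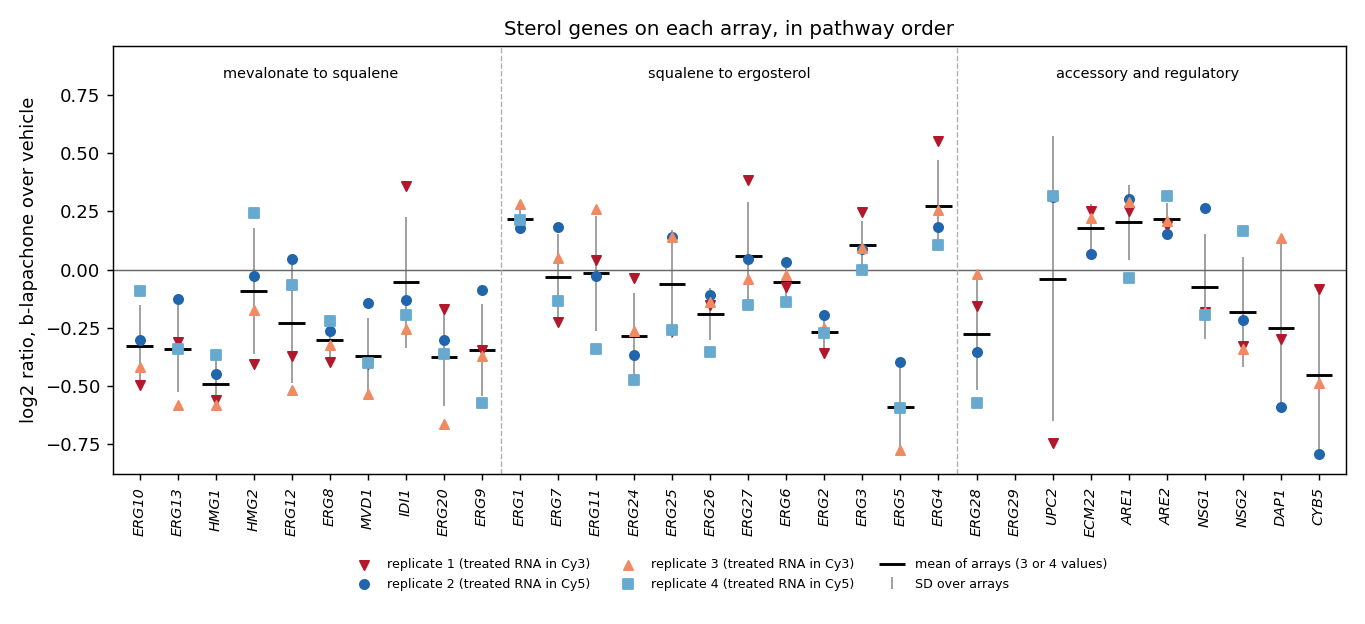
Log2 ratios (b-lapachone over vehicle, vertical axis) of the 32 sterol genes in pathway order; symbols are the 4 arrays, black bars the means and grey lines the SD over arrays. All 10 means from ERG10 to ERG9 lie below 0, ERG5 is the lowest mean at -0.59, and ERG29 has no value.

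The mevalonate to squalene genes had the lowest median of the 3 classes in the assumed direction. Read as a fixed dye ratio they would have the highest, 0.090, beside -0.05 for squalene to ergosterol and -0.07 for the accessory genes. As taken here, all 10 of their means were below 0, as were 53.2% of all means, and their median was -0.33. On every array 7 of the 10 were below 0, as were 14.4% of all genes. HMG1 alone passed the test, as a fall (0.959% of all genes). At an unadjusted limma p under 0.05, 7 were lower (8.63% of all genes) and 0 higher (10.2%). The class median was -0.39, -0.14, -0.47 and -0.28 on replicates 1 to 4, while the median of all genes tested stayed between -0.02 and 0.002. On each array 9 or 10 of the 10 genes lay in the lower 50% of that array's values; 8, 4, 9 and 7 of them were in the lowest 25% on replicates 1 to 4.

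HMG1 (YML075C) encodes the HMG-CoA reductase that makes mevalonate, the rate-limiting step of the pathway. Its log2 ratio was -0.56, -0.45, -0.58 and -0.37 on replicates 1 to 4. All 4 values were negative and close together, each within the lowest 6% of its array (percentiles 5.27, 3.51, 2.12 and 4.90). The mean of -0.49 ± 0.10 (SD, n = 4; 95% interval -0.70 to -0.28) was 1.40-fold lower, with a Benjamini-Hochberg adjusted p of 0.0208 (limma). Without replicate 3 the adjusted p was 0.207 and without replicate 4 it was 0.0635, at means of -0.46 and -0.53.

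HMG2 (YLR450W), the second HMG-CoA reductase and the isozyme known for sterol-regulated degradation, did not pass at -0.09 ± 0.27. Its values were -0.41, -0.03, -0.17 and 0.24 on replicates 1 to 4, spread on both sides of 0. HMG1 lay below HMG2 on all 4 arrays, by 0.16, 0.42, 0.41 and 0.61 on replicates 1 to 4, HMG1 minus HMG2 having a mean of -0.40 ± 0.19. In an exact two-sided sign-flip permutation test over arrays, 2 of 16 sign patterns were as extreme, the fewest possible with 4 arrays, and p after Benjamini-Hochberg adjustment over 4 paralogue pairs was 0.50. With 4 arrays this test could not have passed the threshold whatever the values. Related sequences can also cross-hybridise on arrays, and probe sequences were not used here.

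Before HMG-CoA reductase, 2 enzymes condense acetyl-CoA. ERG10 (YPL028W), the acetoacetyl-CoA thiolase that opens the route, was at -0.50, -0.30, -0.42 and -0.09 on replicates 1 to 4 (mean -0.33 ± 0.18). ERG13 (YML126C), HMG-CoA synthase, was at -0.31, -0.13, -0.58 and -0.34 (mean -0.34 ± 0.19). Both genes were below 0 on every array, and neither passed the test (limma, Benjamini-Hochberg adjusted p = 0.122 and 0.115).

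After mevalonate, 3 enzymes work in sequence to give isopentenyl pyrophosphate. ERG12 (YMR208W), mevalonate kinase, was at -0.37, 0.05, -0.52 and -0.07 on replicates 1 to 4. ERG8 (YMR220W), phosphomevalonate kinase, was at -0.40, -0.26, -0.32 and -0.22. MVD1 (YNR043W), the mevalonate pyrophosphate decarboxylase, was at -0.41, -0.15, -0.53 and -0.40. ERG8 and MVD1 were negative throughout, with means of -0.30 ± 0.08 and -0.37 ± 0.16, whereas ERG12, with a mean of -0.23 ± 0.26, was near 0 on the arrays with treated RNA in Cy5. None of the 3 passed (limma, Benjamini-Hochberg adjusted p = 0.308, 0.1249 and 0.0788).

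IDI1 (YPL117C), the isopentenyl diphosphate isomerase, was the highest of the class at -0.06 ± 0.28. Its values were 0.36 on replicate 1 and -0.13, -0.26 and -0.20 on replicates 2 to 4, so 1 array stood opposite to the other 3. ERG20 (YJL167W), farnesyl pyrophosphate synthetase, gave -0.17, -0.30, -0.67 and -0.36 (mean -0.38 ± 0.21). ERG9 (YHR190W), squalene synthase, gave -0.35, -0.09, -0.37 and -0.57 (mean -0.35 ± 0.20). These last genes were below 0 on each array without passing (limma, Benjamini-Hochberg adjusted p = 0.0924 for ERG20 and 0.114 for ERG9), although ERG20 passed without replicate 1 (adjusted p = 0.0421).

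From squalene to ergosterol the genes had means on both sides of 0. Of 12 tested, ERG5 fell (0.959% of all genes) and none rose (0 higher by limma, 2.07% of all genes). At an unadjusted p under 0.05, 2 were higher (10.2% of all genes) and 3 lower (8.63%). Below 0 were 8 means, as were 53.2% of all means, and 4 were above 0. The median was -0.04. On single arrays the class median was -0.04, 0.04, 0.01 and -0.21 on replicates 1 to 4, so replicate 4 held the lowest value. Below 0 on every array that measured them were ERG5, ERG24, ERG26 and ERG2, as were 14.4% of all genes. Above 0 on every array were ERG1 and ERG4, as were 12.9% of all genes.

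**Figure D2:**
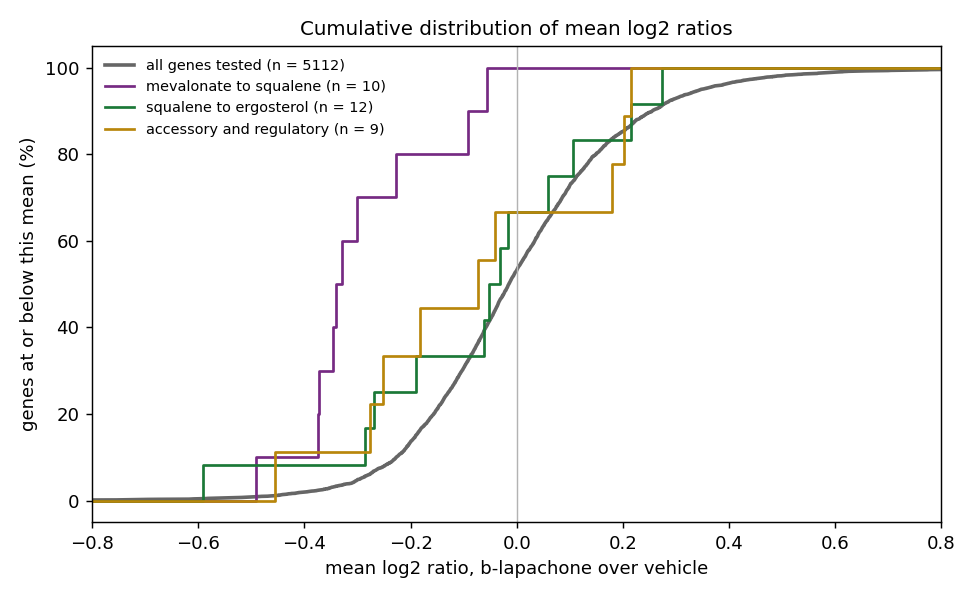
Cumulative share of genes (percent, vertical axis) at or below each mean log2 ratio (b-lapachone over vehicle, horizontal axis) for all 5112 genes tested and for the 3 classes of sterol genes. The mevalonate to squalene curve reaches 100% below 0, with a median of -0.33, while the squalene to ergosterol and accessory classes have medians of -0.04 and -0.07; the axis leaves out means beyond 0.8 in size.

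ERG5 (YMR015C) encodes the cytochrome P450 that desaturates the sterol side chain near the end of the pathway. It had no value on replicate 1 and stood at -0.40, -0.78 and -0.59 on replicates 2 to 4. Each of those values was low for its array, at percentiles 5.29, 0.656 and 0.768. The mean of -0.59 ± 0.19 (SD, n = 3; 95% interval -0.86 to -0.32) was 1.51-fold lower (limma, Benjamini-Hochberg adjusted p = 0.0297) and, in the assumed direction, the lowest of the sterol genes tested. As a fixed dye ratio it would be -0.07, above ERG28 at -0.19. With 1 array in Cy3 and 2 in Cy5 its dye effect does not cancel; a fit with a dye coefficient gave -0.64 (adjusted p = 0.0219). Leaving out replicate 3 or 4 left 2 arrays and ended the call (adjusted p = 0.315 and 0.136, at means of -0.50 and -0.59). Without replicate 2, which also left 2 arrays, the call stood (limma, adjusted p = 0.0346, at a mean of -0.69).

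The other cytochrome P450 of the pathway, ERG11 (YHR007C), which removes the C-14 methyl group of lanosterol, was at -0.02 ± 0.25. Its values were 0.04, -0.03, 0.26 and -0.34 on replicates 1 to 4, positive with treated RNA in Cy3 and negative with it in Cy5. It lay at the 49.5th percentile of all means (limma, Benjamini-Hochberg adjusted p = 0.950). ERG24 (YNL280C), the C-14 sterol reductase that acts next, was at -0.04, -0.37, -0.26 and -0.48, a mean of -0.29 ± 0.19 that did not pass (adjusted p = 0.171).

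Squalene epoxidase and lanosterol synthase begin this stretch. ERG1 (YGR175C), the epoxidase, was at 0.19, 0.18, 0.28 and 0.21 on replicates 1 to 4. All 4 values were positive and the SD of 0.05 was the smallest among the sterol genes; the mean of 0.22 missed the threshold over all genes (limma, Benjamini-Hochberg adjusted p = 0.250). ERG7 (YHR072W), lanosterol synthase, had values of both signs and a mean of -0.03 ± 0.18.

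The C-4 methyl groups are removed by ERG25 (YGR060W), a methyl sterol oxidase, ERG26 (YGL001C), a C-3 sterol dehydrogenase, and ERG27 (YLR100W), a keto reductase, held together by the scaffold ERG28 (YER044C). ERG25 and ERG27 had values on both sides of 0, with means of -0.06 ± 0.23 and 0.06 ± 0.23. ERG26 was negative throughout at -0.19 ± 0.11, and ERG28 was at -0.16, -0.36, -0.02 and -0.57 on replicates 1 to 4 (mean -0.28 ± 0.24). None of these 4 passed (0 by limma, with ERG28 alone at an unadjusted p under 0.05). ERG29 (YMR134W), a further accessory of this step, had no value on any array.

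Among the last enzymes, ERG4 and ERG5 stood at opposite ends of the class. ERG4 (YGL012W), the C-24(28) reductase that completes ergosterol, was at 0.55, 0.18, 0.26 and 0.10 on replicates 1 to 4. Its mean of 0.27 ± 0.20 was the highest of all sterol genes and missed the threshold (Benjamini-Hochberg adjusted p = 0.191 by limma), and replicate 1 held the highest value. ERG2 (YMR202W), the C-8 isomerase, was at -0.36, -0.19, -0.25 and -0.27, a mean of -0.27 ± 0.07 (adjusted p = 0.155). ERG3 (YLR056W), the C-5 desaturase, and ERG6 (YML008C), the C-24 methyltransferase, lay near 0 at 0.11 ± 0.10 and -0.05 ± 0.07.

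Grouped by chemistry after their values were seen, the 5 oxygen-using steps (ERG1, ERG11, ERG25, ERG3 and ERG5) had means from -0.59 to 0.22. Of these means 2 were above 0, and ERG5 alone fell (0.959% of all genes). The 4 haem proteins of the set, ERG11, ERG5, DAP1 and CYB5, all had means below 0, with a median of -0.35. Of all means, 53.2% were below 0. ERG11 was near 0 at -0.02, DAP1 had values of both signs, and CYB5 did not pass. Only ERG11 was measured on 4 arrays.

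CYB5 (YNL111C), cytochrome b5, an electron donor to sterol-modifying enzymes, was the lowest accessory gene. It read -0.08, -0.79 and -0.49 on replicates 1 to 3 and had no value on replicate 4. Since replicate 2 alone of these had treated RNA in Cy5, the dye effect does not cancel in its mean. Cy5 minus Cy3 was -0.51 for CYB5. The mean of -0.45 ± 0.36 (n = 3) missed the threshold (adjusted p = 0.1252 by limma with Benjamini-Hochberg) but passed it with a dye coefficient (adjusted p = 0.0492), with array weights (adjusted p = 0.0367) and without replicate 1 (adjusted p = 0.0202). Without replicate 2 the mean was -0.29 (adjusted p = 0.348), and with a separate variance per gene the adjusted p was 0.490. DAP1 (YPL170W), a haem-binding partner of the P450 Erg11, was also without a value on replicate 4; its values of -0.30, -0.59 and 0.14 on replicates 1 to 3 spread over both signs.

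The sterol-sensing regulators were measured unevenly. UPC2 (YDR213W) was at -0.75 on replicate 1 and at 0.31 on both replicates 2 and 4, with no value on replicate 3. The single array with treated RNA in Cy3 was thus opposite to both arrays with it in Cy5, and the mean of -0.04 ± 0.61 had the largest SD of the sterol genes. The difference between dye orientations, 1.06, had an unadjusted limma p of 0.00122 and a Benjamini-Hochberg adjusted p of 0.307 over all genes. ECM22 (YLR228C), its paralogue, was at 0.25, 0.07 and 0.22 on replicates 1 to 3, all positive, with a mean of 0.18 ± 0.10 (adjusted p = 0.432). Both regulators were measured together on 2 arrays, where UPC2 minus ECM22 was -0.9997 and 0.25 (exact sign-flip permutation p = 1, smallest possible 0.50).

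Both sterol acyltransferases, which store sterol as esters, had positive means of similar size. ARE2 (YNR019W), the main enzyme for ergosterol, was at 0.19, 0.15, 0.21 and 0.32 on replicates 1 to 4. ARE1 (YCR048W), which favours precursors, was at 0.25, 0.30, 0.29 and -0.04. ARE2 was positive throughout and ARE1 on 3 of 4 arrays; the means of 0.22 ± 0.07 and 0.20 ± 0.16 missed the threshold (adjusted p = 0.254 and 0.311 by limma with Benjamini-Hochberg). Their difference, ARE1 minus ARE2, was -0.01 ± 0.23 and took both signs (exact sign-flip permutation p = 1).

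NSG1 (YHR133C) and NSG2 (YNL156C) are relatives of the mammalian INSIG proteins, and Nsg1 is known to stabilise Hmg2. NSG1 was at -0.18, 0.26, -0.18 and -0.19 on replicates 1 to 4, and NSG2 at -0.33, -0.22, -0.34 and 0.16. In each, 1 array was positive against 3 negative, replicate 2 for NSG1 and replicate 4 for NSG2. Neither passed, at means of -0.07 ± 0.23 and -0.18 ± 0.24, and their difference of 0.11 ± 0.35 took both signs (exact sign-flip permutation p = 0.625, in a test that 4 arrays cannot bring below the threshold). The 9 accessory genes tested had a median of -0.07 and no call (0 by limma, and 3 with an unadjusted p under 0.05). Of all genes 3.03% were called, and 18.8% had an unadjusted p under 0.05.

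**Figure D3:**
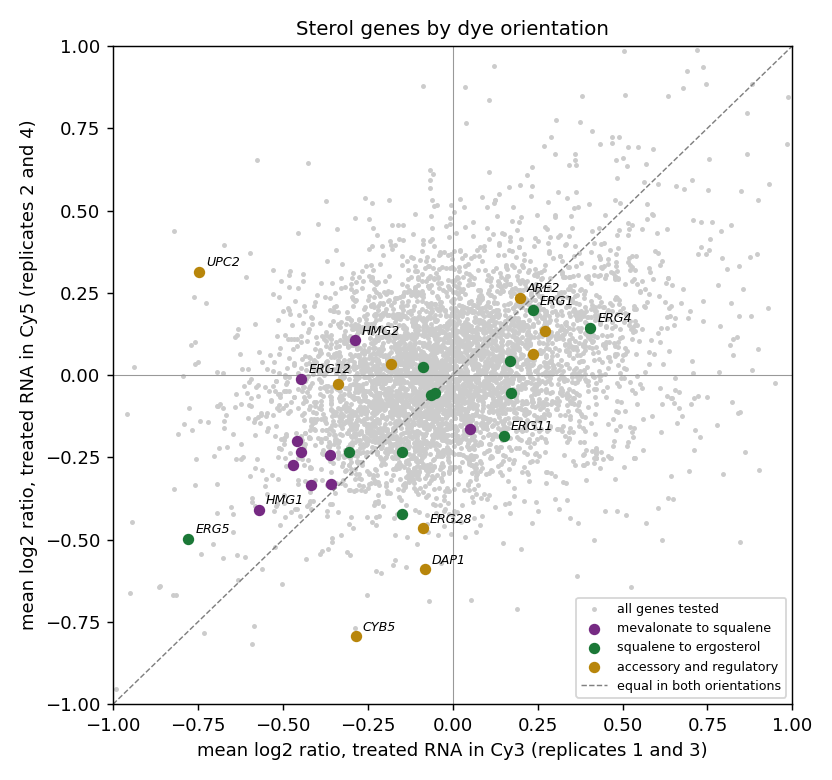
Mean log2 ratio with treated RNA in Cy3 (replicates 1 and 3, horizontal axis) against that with treated RNA in Cy5 (replicates 2 and 4, vertical axis); grey points are all genes tested, coloured points the sterol genes, and the dashed line marks equal values. HMG1 and ERG5 lie in the lower left, at -0.57 and -0.41 and at -0.78 and -0.50, and UPC2 is farthest from the dashed line among the sterol genes, at -0.75 and 0.31; 37 genes lie beyond the axis limits.

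Several of these genes had unlike means in the 2 dye orientations, none past the threshold. No sterol gene had a dye difference past the threshold (0 of 31 by limma, 2 at an unadjusted p under 0.05, UPC2 and ERG12); over all genes 0.0391% did, and 9.76% at an unadjusted p under 0.05. HMG1 was at -0.57 with treated RNA in Cy3 and at -0.41 with it in Cy5. ERG9 was nearly equal in both orientations, at -0.36 and -0.33, and ERG20 was at -0.42 and -0.33. ERG10 and ERG12 were lower with treated RNA in Cy3, at -0.46 against -0.20 and at -0.45 against -0.01. ERG28 went the other way, at -0.09 in Cy3 and -0.46 in Cy5, and with 2 arrays in each orientation the part of dye in these differences was not tested further.

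Genes around the pathway, in lists drawn up from general knowledge with earlier results of these data known, showed 1 call in 44 tested, a rise, where 3.03% of all genes were called and 2.07% rose. That share is near the background. Of 13 genes for sterol binding and transport, SWH1 (YAR042W), an oxysterol-binding protein, rose and none fell (0 lower by limma, 2 lower at an unadjusted p under 0.05). It was at 0.75, 0.50, 0.40 and 0.54 on replicates 1 to 4, positive on each, with a mean of 0.55 ± 0.15 or 1.46-fold (limma, Benjamini-Hochberg adjusted p = 0.0136). The call ended without replicate 3 or without replicate 4 (adjusted p = 0.0980 and 0.0716, at means of 0.60 and 0.55). The list's median was -0.11, and 9 of its 13 means were below 0. AUS1, a sterol importer, was at -0.34, -0.48 and -0.32 on replicates 1 to 3 and did not pass (adjusted p = 0.115). PDR11, of the same list, was at -0.35 and 0.25 on replicates 1 and 2 and had too few values to be tested.

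No call was made in the other 4 lists. Of all genes 3.03% were called by limma, and 18.8% had an unadjusted p under 0.05. Among 5 genes for steryl ester hydrolysis and sterol acetylation (0 by limma, 1 at an unadjusted p under 0.05; median 0.07), YEH1, a steryl ester hydrolase, was largest at 0.34 ± 0.06 (n = 3). The 11 enzymes of the isoprenoid branches (0 by limma, 2 at an unadjusted p under 0.05) had a median of -0.03, beside -0.33 for the mevalonate genes that supply them; COQ2, the prenyltransferase of ubiquinone synthesis, was largest in size at -0.35 ± 0.33. Whether these branches and the mevalonate genes differ was not tested.

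The 7 genes tested for degradation of sterol enzymes at the endoplasmic reticulum (0 by limma, 1 at an unadjusted p under 0.05) had a median of -0.02, and UBC6, a ubiquitin-conjugating enzyme, was largest at 0.29 ± 0.36. Of 8 electron donors and regulators (0 by limma, 2 at an unadjusted p under 0.05; median 0.11), SUT1, a regulator of sterol uptake, was largest at 0.36 ± 0.12 and missed the threshold (adjusted p = 0.0808 by limma with Benjamini-Hochberg). NCP1, the reductase that passes electrons to both P450 enzymes, was at -0.46, 0.19, 0.41 and 0.04 on replicates 1 to 4, values of both signs around a mean of 0.05.

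**Figure D4:**
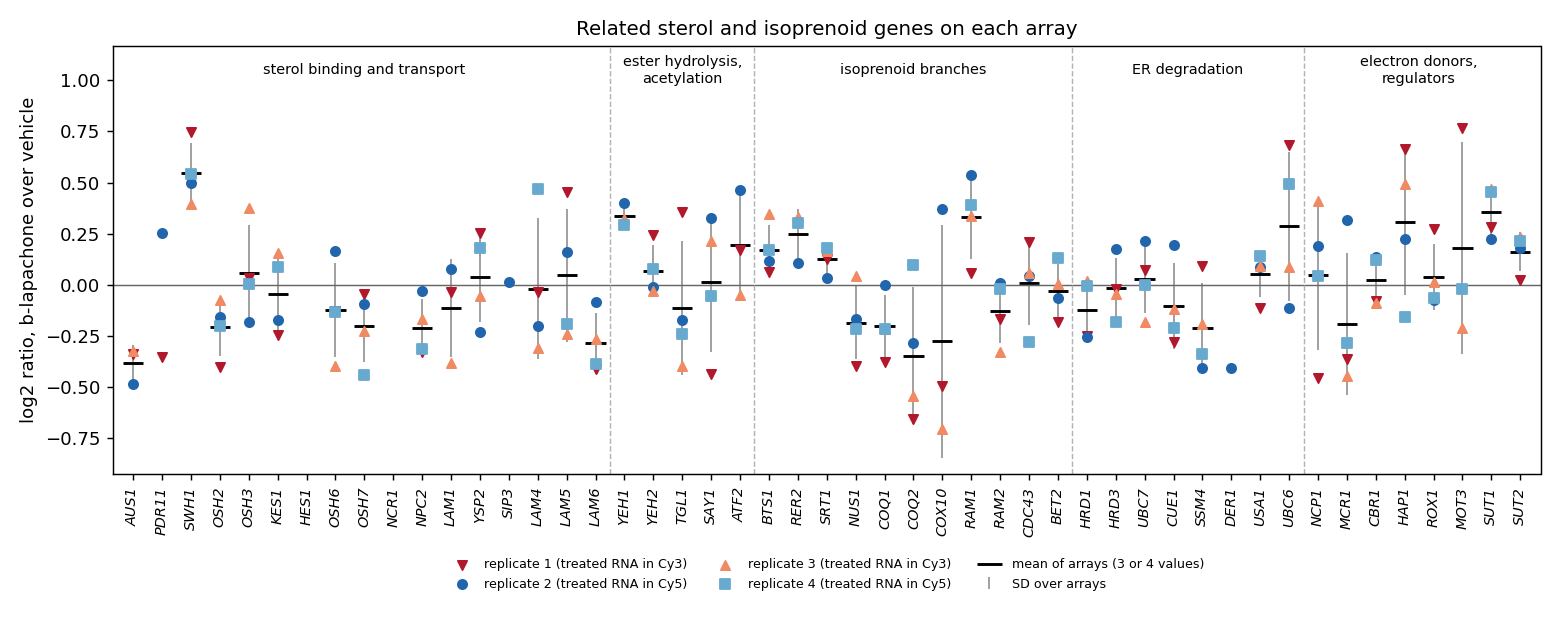
Log2 ratios (b-lapachone over vehicle, vertical axis) of the 49 related genes, by list; symbols are the 4 arrays, black bars the means where at least 3 arrays gave a value, and grey lines the SD over arrays. SWH1, with a mean of 0.55, is the highest, and most other genes have values on both sides of 0.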

How the data were processed

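The authors deposited log2 ratios of the channels, 1 per ORF and array with missing entries marked, as far as the values show. How they scanned, corrected and normalized the arrays is not given in the sources here, so base 2 and treated over vehicle are assumptions. Columns had medians from -0.02 to 0.003 and correlated with each other at 0.10 to 0.48 across genes. Gene means were compared with 0 by limma 3.58.1, run in R 4.3.3 (intercept only, two-sided, values on at least 3 of 4 arrays), with Benjamini-Hochberg adjustment over 5112 genes and a threshold of 0.05. Errors are SDs over arrays. The procedure was tested on simulated data with independent noise on each array, which does not test the calls made here. Without signal or background values, dim spots could not be told from bright ones, and having 4 arrays limits precision. The sterol genes and lists were chosen with earlier results of these data known. Values on single arrays are given for genes that passed, had a mean of at least 0.4 in size, were highest or lowest in a class or belonged to a paralogue pair; other genes shown array by array were chosen after their values were seen. Of related lists the called gene or the largest is named, with AUS1, PDR11 and NCP1 added after their values were seen. Sequences and genome coordinates were not used here.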

Additional observations from a re-analysis of the deposited data

Results flagged for a closer look

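In 2 genes and 1 class median, out of 30 sets of 4 values examined, 1 array stood far from the other 3; chance alone flags about 1 in 20. ARE1 was at -0.036 on replicate 4, against 0.25 to 0.30 on the others, and NSG1 was at 0.26 on replicate 2, against -0.18 to -0.19. The accessory class had a median of -0.16 on replicate 1, against 0.06 to 0.07 on the others.

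In ERG11 and UPC2 every array of one dye orientation lay on the opposite side of 0 from the other. With so few arrays, random signs alone give this pattern in some genes. Cy5 minus Cy3 was -0.33 for ERG11 (limma, Benjamini-Hochberg adjusted p = 0.607) and 1.06 for UPC2 (adjusted p = 0.307), so neither difference passed its test. UPC2 had 1 array with treated RNA in Cy3.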

How the results depend on the processing

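The 2 falls, HMG1 and ERG5, were called with a dye coefficient (which added CYB5), with centred, scaled or quantile-normalized arrays, with values on at least 2 arrays and with a robust variance prior. Over genes with values on 4 arrays 1 sterol gene was called, HMG1, since ERG5 lacks a value. Array weights called 6, all lower, adding ERG13, MVD1, ERG20 and CYB5. With each gene's own variance 0 were called (12 at an unadjusted p under 0.05), against a 1.2-fold change 0 (2 unadjusted), and without single replicates 0 to 4: 4 without replicate 1, 2 without replicate 2 and 0 without replicate 3 or 4 (10 and 12 unadjusted). Over all genes the 155 calls (106 higher, 49 lower) became 0 with own variances (690 at an unadjusted p under 0.05), 274 with array weights (176 and 98), 28 against a 1.2-fold change (20 and 8), and 27 to 179 without single replicates (21 to 128 higher, 6 to 54 lower). The cause of these changes was not tested. Read as a fixed dye ratio, with replicates 1 and 3 turned, 0 sterol genes were called (1 unadjusted) and 1 gene in all (1 higher, 0 lower; 215 unadjusted). HMG1 then had a mean of 0.081 and SWH1 of -0.026, opposite in sign to the values given, the median of the 31 sterol genes was 0.0016 and those of the mevalonate, squalene to ergosterol and accessory classes 0.090, -0.05 and -0.07, and HMG1 minus HMG2 was -0.12 and UPC2 minus ECM22 0.62. The median of the 31 lay between -0.20 and -0.13 and that of the mevalonate class between -0.37 and -0.29 when single replicates were left out. That of the squalene to ergosterol class lay between -0.09 and 0.0038 and turned sign without replicate 4. Without single replicates HMG1 minus HMG2 lay between -0.48 and -0.33, and UPC2 minus ECM22, measured on 2 arrays, between -0.9997 and 0.25. If the values were natural or base-10 logs, the ratio for HMG1 would be 0.612 or 0.323 in place of 0.712. Promoters were not searched for motifs. No paired analysis was possible because the 4 arrays form 1 group, in which each ratio already sets a treated against a vehicle culture.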
